A study of Homo sapiens with 9 samples.

Results

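The human beta-defensin genes were examined for their position relative to domains of H3K9me3, the trimethylation of histone H3 that marks constitutive heterochromatin. Members were all protein-coding genes of the GRCh38 table whose symbol begins with DEFB, which gave 39 of 20037 genes. Neighbouring members at most 1 Mb apart were joined into clusters of at least 3 genes. The 6p12 cluster held 4 members, the 20p13 cluster 6 and the 20q11 cluster 7. The 19 members on 8p23 fell into a distal cluster of 14, nearer the end of the short arm, and a proximal cluster of 5. The other 3 members were DEFB131A on 4p16 and DEFB108B and DEFB131B on 11q13.

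The cells were hTERT RPE-1, a widely used human cell line from retinal pigment epithelium that telomerase keeps dividing, and all groups came from clonal stable lines. The LmnB1 libraries came from clones LmnB1_16 and LmnB1_6, which overexpressed lamin B1, a filament protein of the nuclear lamina, fused to the red fluorescent protein mCherry. The mCherry libraries came from clones mCherry_3 and mCherry_4, which overexpressed mCherry alone. Cells of both groups received doxycycline at 0.05 ug/mL for 24 hours, and each clone gave 2 biological replicates, so there were 4 libraries per construct. H3K9me3 was mapped by Cut&Run, in which an antibody-tethered nuclease releases marked chromatin for sequencing. The 1 input sample, from untreated wild-type cells, was not analysed on its own, and every domain list gives input reads beside the H3K9me3 reads. Each clone is a single isolate, so differences between constructs and differences between clones can be separated only as far as 2 clones per construct allow. Lamin B1 level is not measured by these lists, so the label of each clone could not be checked.

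Each library had 1 deposited list of domains, stretches enriched for H3K9me3 reads over input. The measure used for a gene is its covered percent, the share of the gene body that lies inside listed domains. Every list stopped just above a log2 enrichment of 0.6, so a gene at 0 lay outside the list but was not shown to lack the mark. Values of the 4 LmnB1 libraries are given in the order LmnB1_16 replicates 1 and 2, then LmnB1_6 replicates 1 and 2, and those of the 4 mCherry libraries in the order mCherry_3 replicates 1 and 2, then mCherry_4 replicates 1 and 2. The genome length inside listed domains was 610, 534, 646 and 357 Mb for LmnB1 and 529, 528, 429 and 320 Mb for mCherry. Reads inside domains numbered between 4467294 and 10321442 in the LmnB1 libraries and between 2855378 and 6959349 in the mCherry libraries. The least covered library of each construct was replicate 2 of LmnB1_6 and replicate 2 of mCherry_4. Over 229 domains listed with identical coordinates, the counts of the mCherry_3 pair did not differ detectably beyond sampling noise (chi-square per degree of freedom 1.08, p = 0.197), although their lists differed. The same value was 1.10 over 648 domains for the LmnB1_16 pair (p = 0.038 by the chi-square test of read counts), and 1.73 and 1.67 for the pairs of LmnB1_6 and mCherry_4. Differences are also given with the mCherry_3 pair counted as 1 sample.

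Beta-defensins are small, secreted, positively charged peptides held together by conserved cysteine bridges, and many kill bacteria and fungi by disturbing their membranes. Some are made by skin, airway and gut epithelia, and some of those are induced by microbial products or inflammation. Others, including many encoded on chromosomes 6 and 20, are best known from the male reproductive tract, where some coat maturing sperm. H3K9me3 is bound by heterochromatin protein 1, is linked to silencing, and is often found in tissue-specific gene clusters that a cell type does not use. Much of this chromatin lies against the nuclear lamina.

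The promoter windows of the members that entered a domain are shown with 2 others, DEFB131B, the copy of DEFB131A, and DEFB123, the member window with the most CG. RefSeq windows for GRCh38.p14 run from 250 bases before to 50 bases after an annotated start and were at hand for 18 of the 39 members, as 21 windows. Each is printed 5′ to 3′ in lower case, with every CG dinucleotide, the substrate of DNA methylation, in capitals.
DEFB114 (chr6:49964115-49964414, minus strand): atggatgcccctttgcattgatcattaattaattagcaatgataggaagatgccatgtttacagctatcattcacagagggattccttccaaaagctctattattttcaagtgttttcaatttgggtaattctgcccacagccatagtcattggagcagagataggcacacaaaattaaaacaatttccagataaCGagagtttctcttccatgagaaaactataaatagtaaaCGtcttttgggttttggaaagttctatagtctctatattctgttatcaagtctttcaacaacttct
DEFB113 (chr6:49969576-49969875, minus strand): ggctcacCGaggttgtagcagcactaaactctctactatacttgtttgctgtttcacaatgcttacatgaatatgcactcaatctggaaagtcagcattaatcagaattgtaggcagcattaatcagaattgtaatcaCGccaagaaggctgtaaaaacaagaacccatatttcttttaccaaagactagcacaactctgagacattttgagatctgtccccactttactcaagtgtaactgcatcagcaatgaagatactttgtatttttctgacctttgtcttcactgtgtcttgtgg
DEFB110 (chr6:50021932-50022231, minus strand): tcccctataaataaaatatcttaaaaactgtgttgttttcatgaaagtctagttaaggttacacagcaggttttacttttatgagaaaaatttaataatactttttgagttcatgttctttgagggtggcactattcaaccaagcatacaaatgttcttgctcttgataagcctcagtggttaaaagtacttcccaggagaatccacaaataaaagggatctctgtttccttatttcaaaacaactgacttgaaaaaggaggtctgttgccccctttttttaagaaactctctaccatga
DEFB112 (chr6:50049880-50050179, minus strand): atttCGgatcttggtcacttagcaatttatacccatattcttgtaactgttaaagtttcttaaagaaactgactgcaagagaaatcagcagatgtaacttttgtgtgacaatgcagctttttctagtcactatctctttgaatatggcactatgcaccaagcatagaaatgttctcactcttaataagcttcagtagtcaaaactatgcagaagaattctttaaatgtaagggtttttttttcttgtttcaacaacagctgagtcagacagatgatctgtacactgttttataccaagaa
DEFB131A (chr4:9444164-9444463, plus strand): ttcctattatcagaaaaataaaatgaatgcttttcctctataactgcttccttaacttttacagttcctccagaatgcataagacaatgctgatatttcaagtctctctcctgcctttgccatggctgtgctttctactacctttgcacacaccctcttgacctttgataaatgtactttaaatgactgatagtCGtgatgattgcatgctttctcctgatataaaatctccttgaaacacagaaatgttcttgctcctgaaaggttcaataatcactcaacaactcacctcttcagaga
DEFB131B (chr11:71878203-71878502, plus strand): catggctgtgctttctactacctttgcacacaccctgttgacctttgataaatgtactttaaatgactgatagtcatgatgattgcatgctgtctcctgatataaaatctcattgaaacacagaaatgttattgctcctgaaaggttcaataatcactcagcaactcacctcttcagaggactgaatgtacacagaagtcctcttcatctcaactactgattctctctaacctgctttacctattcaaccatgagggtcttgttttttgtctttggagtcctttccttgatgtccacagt
DEFB125 (chr20:87422-87721, plus strand): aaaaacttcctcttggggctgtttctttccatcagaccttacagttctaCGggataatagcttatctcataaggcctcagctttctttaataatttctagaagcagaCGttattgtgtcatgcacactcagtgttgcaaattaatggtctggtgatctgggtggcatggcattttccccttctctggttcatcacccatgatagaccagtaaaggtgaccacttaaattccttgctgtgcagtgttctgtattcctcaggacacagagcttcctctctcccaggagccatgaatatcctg
DEFB123 (chr20:31440382-31440681, plus strand): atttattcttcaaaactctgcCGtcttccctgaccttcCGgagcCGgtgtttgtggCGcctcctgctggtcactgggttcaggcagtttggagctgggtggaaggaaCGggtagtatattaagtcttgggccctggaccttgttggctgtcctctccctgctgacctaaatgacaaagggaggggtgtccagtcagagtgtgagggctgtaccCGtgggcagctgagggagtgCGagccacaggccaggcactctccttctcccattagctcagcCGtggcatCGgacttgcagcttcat
DEFB131B and DEFB123 lay in no domain in any library. The DEFB125 window was outside every domain too, although its gene body was partly covered. DEFB110 has a second window shifted by a few bases that is not shown.

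The windows at hand, which include none of the 19 members on 8p23, were poor in CG. They held 0 to 9 CG, with a median of 2, while the median over 22199 windows of protein-coding genes was 21. The 6p12 windows held at most 2 CG and had a median GC content of 34.0%, against 46.7% at 20p13, 47.5% at 20q11 and 62.3% over all windows. The letters TATAAA, the core of the TATA box, were searched on both strands and at any position, without regard to overlap or base composition. A match is therefore not shown to be a TATA box. They were found in 11 of 21 member windows and in 9.47% of all windows. By cluster they were found in 4 of 5 windows at 6p12, which include both windows of DEFB110, 1 of 6 at 20p13 and 4 of 8 at 20q11. Low CG content was not limited to covered members, since DEFB119 and DEFB131B also have a window with 0 CG and were never covered. DEFB131A and DEFB131B are near-identical copies. Over the 180 bases that both windows share, 173 were identical and 7 differed, yet the DEFB131A window lay inside a domain in 7 libraries and the DEFB131B window in 0. Reads that match both copies could have been assigned to either, so values at this pair are uncertain.

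Beta-defensin genes were covered at 6p12 and at a gene each on 4p16 and 20p13, and lay outside the lists elsewhere. Of the 39 members, 33 were at 0 in all 8 libraries, which is 84.6%, close to the background over all genes of 79.3%. The 6 that were covered were all 4 members at 6p12, DEFB131A at 4p16 and DEFB125 at 20p13. Each of these 6 was covered over at least 50% in at least 1 library, which is 15.4% of members against a background of 8.39%. DEFB112 was the 1 member covered over at least 50% in all 8 libraries, or 2.56% of members, with 1.82% of all genes at that level. Both shares rest on few members, and the 4 genes at 6p12 share their domains, so they are not independent observations. All 14 members of distal 8p23, all 5 of proximal 8p23, all 7 of 20q11, 5 of 6 at 20p13 and both at 11q13 were at 0 throughout.

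**Figure D1:**
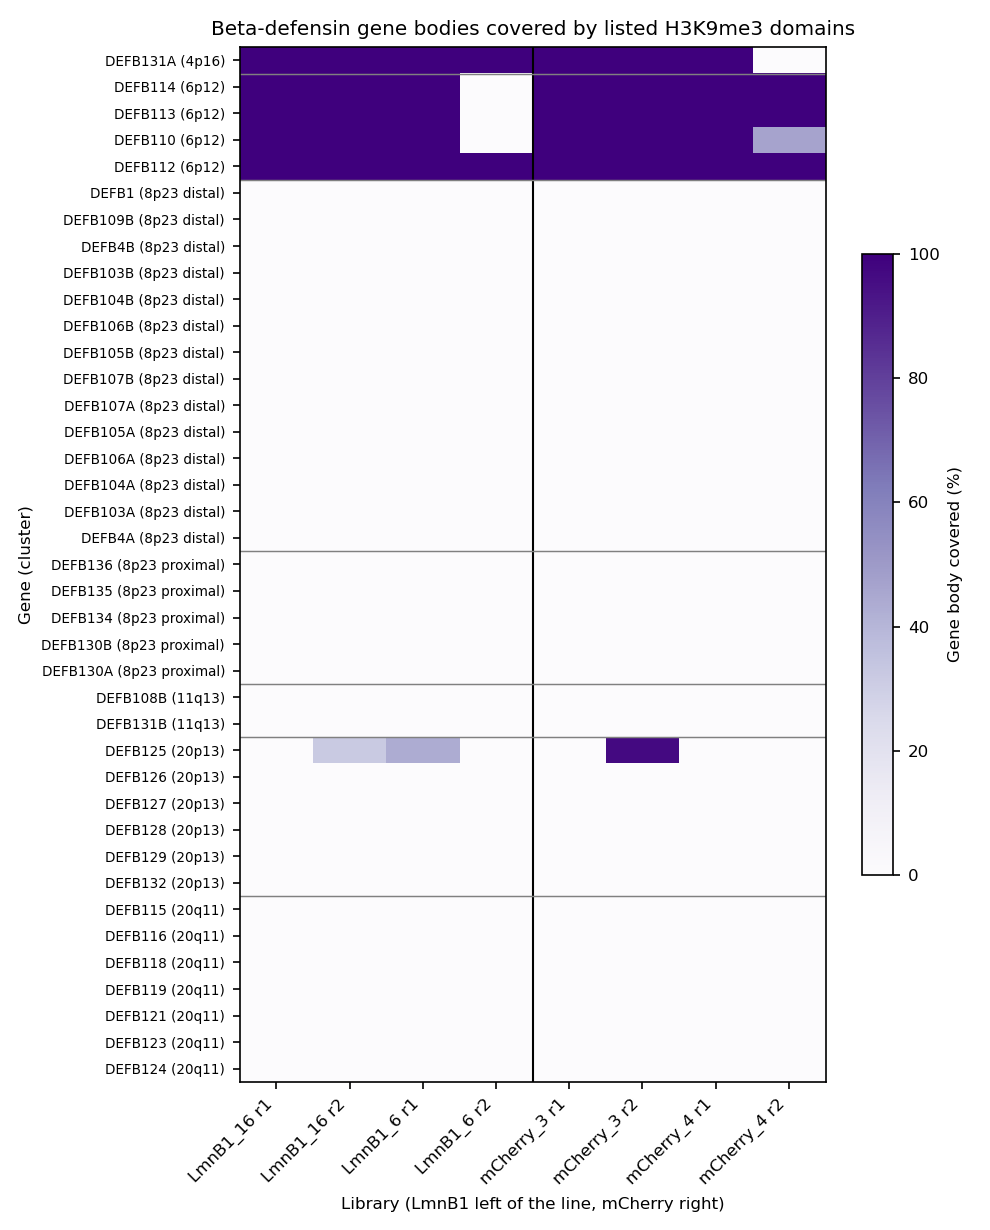
Covered percent of each of the 39 beta-defensin gene bodies (down the page, with the cluster in brackets) in each of the 8 libraries (across), on a colour scale of 0 to 100%. Only 6 genes show any colour, and apart from DEFB125 the pale squares among them are LmnB1_6 replicate 2 at DEFB114, DEFB113 and DEFB110 and mCherry_4 replicate 2 at DEFB110 and DEFB131A.

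Coverage depended on the cluster far more than on the construct. The 6p12 span, chr6:49960249-50049929 (89.7 kb from the first to the last member), was covered over 100%, 100% and 100% in LmnB1_16 replicates 1 and 2 and LmnB1_6 replicate 1, and over 13.3% in LmnB1_6 replicate 2. In mCherry libraries it was covered over 95.5%, 100%, 95.5% and 89.96%. Replicate 2 of LmnB1_6 was the sole low library, and the other 7 overlapped. The distal 8p23 span, chr8:6870592-7896716 (1026 kb), was covered over 0.390% in 3 LmnB1 libraries, over 0% in LmnB1_6 replicate 2, and over 0.390% in all 4 mCherry libraries. The 20p13 span, chr20:87672-261096 (173 kb), was covered over 0%, 1.73%, 3.46% and 0% in LmnB1 libraries and over 0%, 6.34%, 0% and 0% in mCherry libraries. Proximal 8p23, chr8:11973937-12318316 (344 kb), and 20q11, chr20:31257664-31475127 (217 kb), were at 0 in all 8 libraries. Within each of the 8 libraries the 6p12 span was covered more than every other cluster span. These clusters were compared as a description, since each is 1 stretch of genome.

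**Figure D2:**
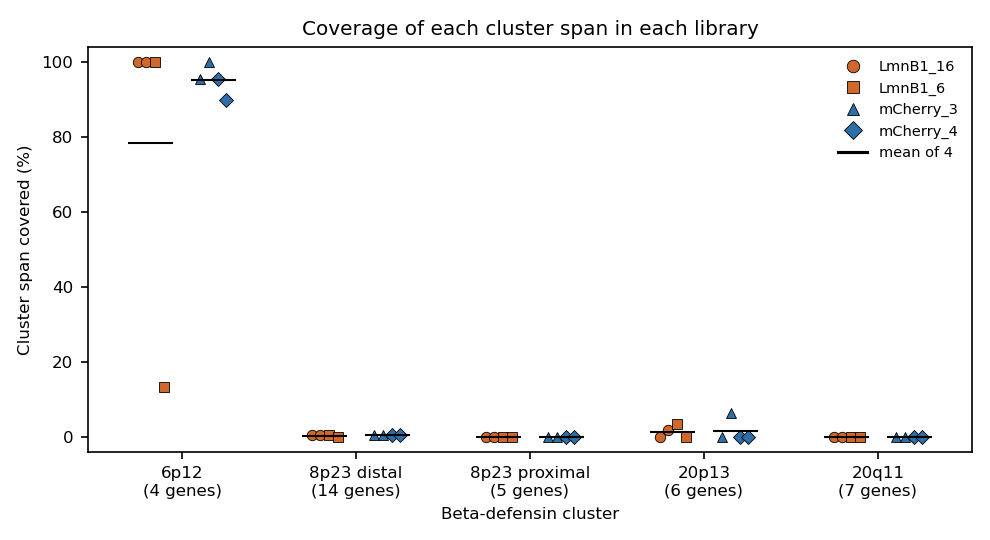
Covered percent (y axis) of the span of each beta-defensin cluster (x axis, with its number of genes), 1 point per library, LmnB1 in orange on the left and mCherry in blue on the right of each pair, shapes marking clones and bars the mean of 4. At 6p12 all points but LmnB1_6 replicate 2 at 13.3% lie at or above 89.96%, and in the other clusters all points lie at or below 6.34%.

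The 6p12 cluster is a tight row of genes (DEFB114, DEFB113, DEFB110 and DEFB112) in which domains ran well past the defensins. DEFB114, at chr6:49960249-49964164, was covered over 100%, 100%, 100% and 0% across LmnB1 libraries and over 100% in all 4 mCherry libraries. DEFB113, at chr6:49968677-49969625, had the same 8 values. Neither gene separated the constructs, and both were lost from the list in LmnB1_6 replicate 2. DEFB110, at chr6:50009138-50021994, was covered over 100%, 100%, 100% and 0% in LmnB1 libraries and over 100%, 100%, 100% and 46.6% in mCherry libraries. DEFB112, at chr6:50042099-50049929, was covered over 100% in all 8. The values of these genes are therefore nearly all at one end of the scale or the other. In LmnB1_6 replicate 2, DEFB114, DEFB113 and DEFB110 lay wholly outside the listed domains, with no domain edge inside them. Among these genes a domain edge lay inside the gene only at DEFB110 in mCherry_4 replicate 2, the library at 46.6%.

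The domains behind those values differed widely in length. In LmnB1_16 replicate 1, 1 domain of 2020 kb, chr6:49855001-51875000, held the whole cluster with 33566 H3K9me3 reads and 17115 input reads. The domain was 632 kb long in LmnB1_16 replicate 2 and 367 kb in LmnB1_6 replicate 1, and both began within 1 kb of the same place. In LmnB1_6 replicate 2 a 39 kb domain, chr6:50038001-50077000, held DEFB112 alone, with 468 H3K9me3 reads and 324 input reads. In mCherry_3 replicate 1 the cluster lay in a 120 kb and a 1900 kb domain, and in replicate 2 in 1 domain of 790 kb. In mCherry_4 replicate 1 the domains were 166 and 90 kb long. In mCherry_4 replicate 2 they were 86 and 63 kb long, chr6:49921001-50007000 and chr6:50016001-50079000, and the gap between them took part of DEFB110. The domains of different libraries thus overlapped at the cluster and differed in length and in where gaps opened.

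**Figure D3:**
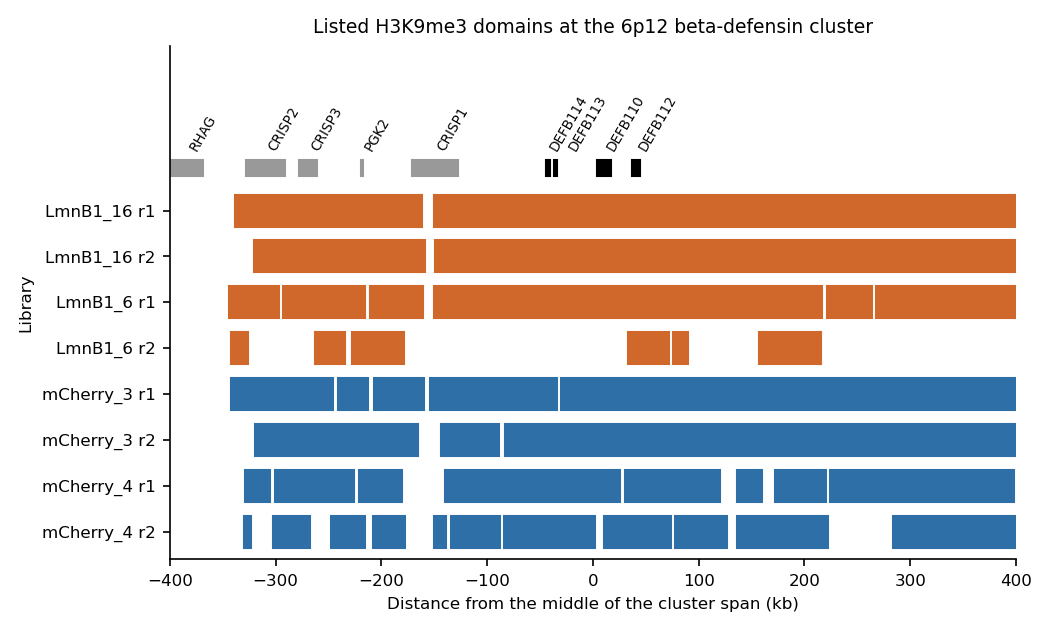
Listed domains (bars) in each library (LmnB1 in orange above mCherry in blue) on both sides of the middle of the 6p12 cluster span (x axis, distance in kb), with beta-defensin genes in black and other protein-coding genes in grey. DEFB112 lies under a bar in all 8 libraries, and DEFB114 and DEFB113 lie outside one in LmnB1_6 replicate 2 only.

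Enrichment of the listed domains at 6p12 was ordinary for each list. The authors' log2 enrichment over input was pooled over every domain that overlapped the cluster span. It was 1.16, 0.93, 0.86 and 0.68 in the LmnB1 libraries and 0.91, 0.88, 0.92 and 0.71 in the mCherry libraries. These values describe unlike stretches, such as 2020 kb in LmnB1_16 replicate 1 and 39 kb in LmnB1_6 replicate 2. The latter held DEFB112 alone, so its value does not describe the other genes of the cluster. The groups overlapped. The median log2 enrichment of each whole list was 1.15, 0.96, 0.89 and 0.70 in the LmnB1 libraries and 0.88, 0.87, 0.85 and 0.72 in the mCherry libraries, and each value at the cluster lay close to the median of its own list. A median over domains is not the same measure as a pooled value. Pooled in the same way, the whole lists gave 1.14, 0.95, 0.93 and 0.71 for LmnB1. For mCherry they gave 0.89, 0.88, 0.86 and 0.72. LmnB1_6 replicate 2 had the lowest list median, close to the 0.6 at which lists stop. Yet mCherry_4 replicate 2, with a list median of 0.72 and less of the genome covered, had 89.96% of the cluster span in domains. The part that low enrichment plays in the loss at DEFB114, DEFB113 and DEFB110 was not tested.

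**Figure D4:**
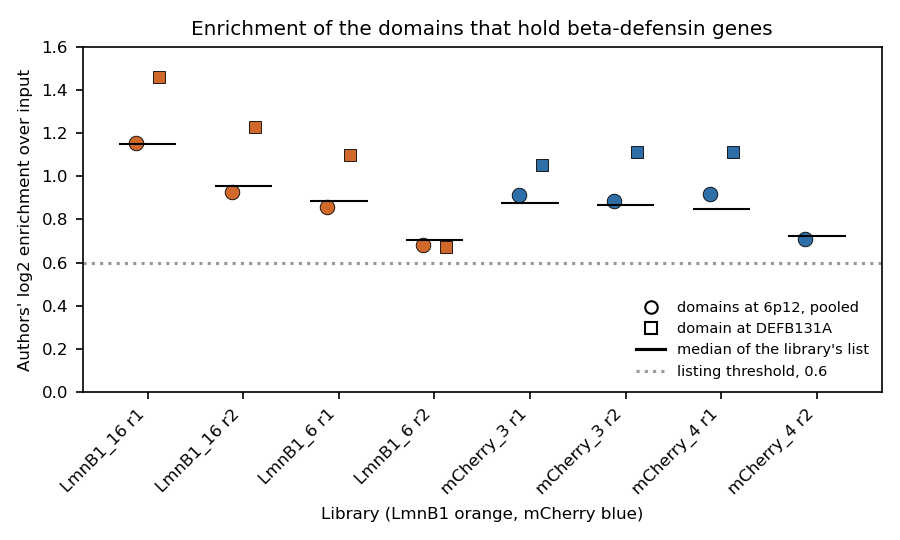
The authors' log2 enrichment over input (y axis) in each library (x axis, LmnB1 in orange left of mCherry in blue) for the domains at 6p12 pooled (circles) and the domain at DEFB131A (squares), with the median of each list (bars) and the listing threshold of 0.6 (dotted). Circles lie on or near the bars, squares lie above them in the 6 libraries other than LmnB1_6 replicate 2 that list the gene, and mCherry_4 replicate 2 has no square.

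DEFB131A lies apart from the clusters at chr4:9444414-9450666 and was covered over 100% in all 4 LmnB1 libraries and over 100%, 100%, 100% and 0% in the mCherry libraries. Its domain ended at the same base, 9459000, in LmnB1_16 replicates 1 and 2, both mCherry_3 replicates and mCherry_4 replicate 1. The domain was 91, 91, 87 and 93 kb long in the LmnB1 libraries and 91, 91 and 45 kb long in the 3 mCherry libraries that list it. Its log2 enrichment was 1.46, 1.23, 1.10 and 0.67 in the LmnB1 libraries and 1.05, 1.11 and 1.11 in those 3 mCherry libraries. In mCherry_4 replicate 2 the nearest domain stopped 1.41 kb short of the gene. The 0 in that library is thus a domain that ended early, not a domain that was missing. DEFB131B, its copy on 11q13, was at 0 in all 8 libraries, as was its neighbour DEFB108B. The nearest domain to either lay 119 to 661 kb away.

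DEFB125, at chr20:87672-97094, is the member nearest the end of the short arm of chromosome 20, and its coverage came from short domains. It was covered over 0%, 31.8%, 43.4% and 0% across LmnB1 libraries and over 0%, 96.5%, 0% and 0% in the mCherry libraries. The domain was 3 kb long in LmnB1_16 replicate 2, 6 kb in LmnB1_6 replicate 1 and 11 kb in mCherry_3 replicate 2. They held 81, 99 and 123 H3K9me3 reads against 26, 56 and 93 input reads, with log2 enrichments of 1.63, 0.91 and 0.70. No clone listed the gene in both replicates, and the mCherry_3 pair, whose counts did not differ detectably over shared domains, split at 0% and 96.5%. DEFB126, whose product coats sperm, and DEFB127, DEFB128, DEFB129 and DEFB132 follow DEFB125 along the chromosome and were at 0 in all 8 libraries.

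**Figure D5:**
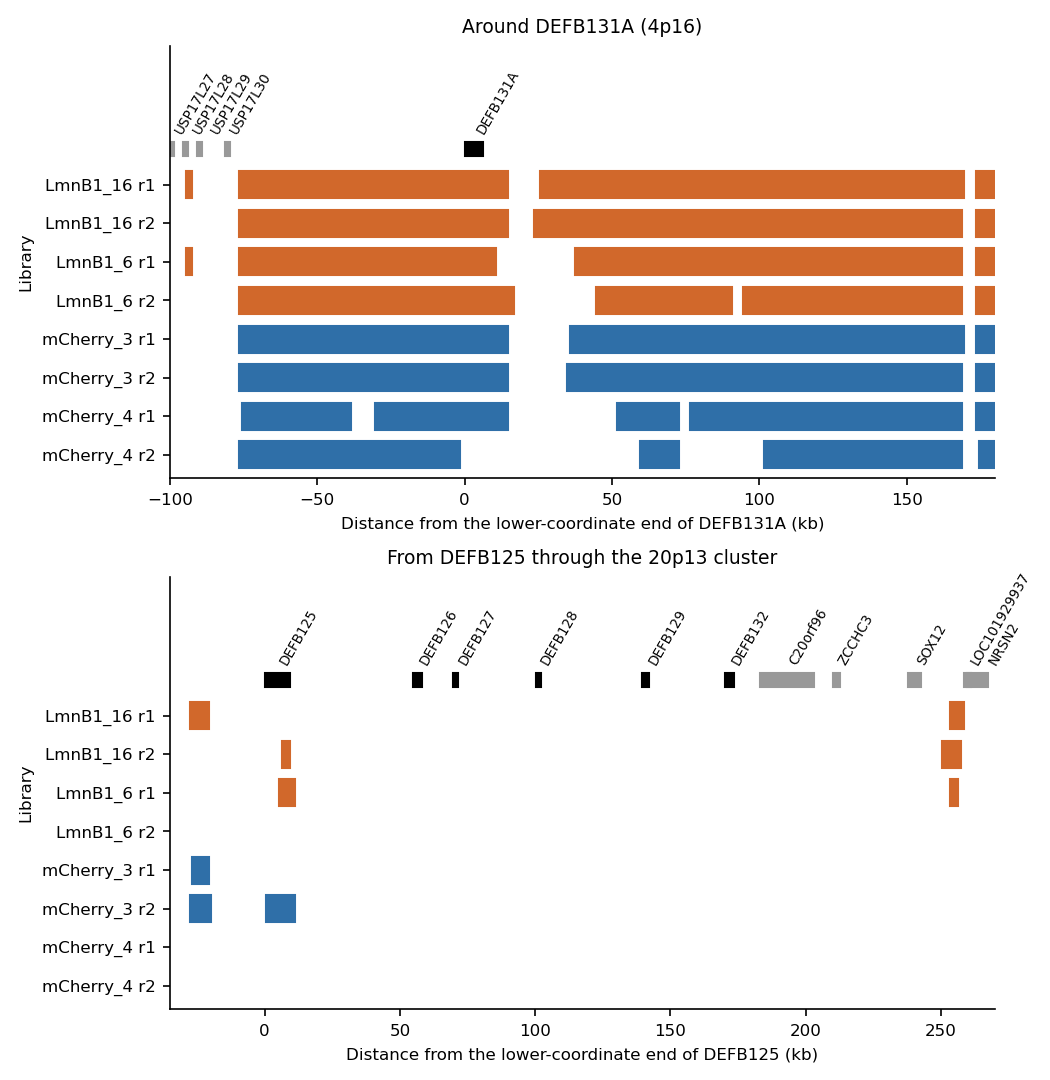
Listed domains (bars) in each library (LmnB1 in orange above mCherry in blue) around DEFB131A (upper panel) and from DEFB125 through the 20p13 cluster (lower panel), as distance in kb from the lower-coordinate end of the named gene. The domain at DEFB131A stops 1.41 kb before the gene in mCherry_4 replicate 2, and at 20p13 the bars that touch a beta-defensin gene are those at DEFB125 in LmnB1_16 replicate 2, LmnB1_6 replicate 1 and mCherry_3 replicate 2.

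The 8p23 members include the best known epithelial defensins. DEFB1 encodes a peptide made constantly by many epithelia, DEFB4A and DEFB4B an inducible peptide first found in inflamed skin, and DEFB103A and DEFB103B a peptide active against Gram-positive and Gram-negative bacteria. Every one was at 0 in all 8 libraries, as were the DEFB104, DEFB105, DEFB106 and DEFB107 pairs and DEFB109B. Of the 19 members on 8p23, 14 have a near-identical second copy in the same region, and whether reads were lost or shared between copies is not known from the lists, so 0 there is less certain than elsewhere. The other 5 have no second protein-coding copy of the same name, although DEFB109B has related pseudogenes, and they were at 0 too. The distal span held 1 domain, chr8:7765001-7769000, between DEFB107B and DEFB107A and reaching the end of FAM90A10. It was listed with the same edges in 7 libraries. It had 130, 109 and 103 H3K9me3 reads in the 3 LmnB1 libraries that list it and 75, 66, 40 and 61 in the mCherry libraries, against 45 input reads. Its log2 enrichment was 1.72, 1.27 and 1.28 in those LmnB1 libraries and 1.03, 0.85, 1.08 and 0.66 in the mCherry libraries, and LmnB1_6 replicate 2 did not list it. Members of distal 8p23 lay 42.7 to 1032 kb from the nearest domain, with a median of 275 kb, and those of proximal 8p23 lay 21.9 to 1873 kb away, with a median of 241 kb.

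The 7 members at 20q11 (DEFB115, DEFB116, DEFB118, DEFB119, DEFB121, DEFB123 and DEFB124) were at 0 in all 8 libraries. DEFB118 is known from the epididymis, where it binds sperm. Over these 7 genes and 8 libraries the nearest domain lay 180 to 809 kb away, with a median of 382 kb. At 20p13 the same distance had a median of 116 kb.

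Lamin B1 overexpression was compared with mCherry alone at the members, to ask whether an excess of this lamina protein moved domains onto or off them. No member passed the test. Testing by limma, which took the clone as random and adjusted p by Benjamini-Hochberg over all genes, was limited to genes whose 8 values averaged 5% or more, and 6 of the 39 members entered. The test called 0 of these 6 and 7 of 2304 genes, or 0.304%, so a count of 0 among 6 is no result about the members. Over all genes an unadjusted p below 0.05 was reached by 84, and by 0 of the 6 members. The smallest unadjusted p among members was 0.454.

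Averages over 4 libraries follow, each followed by the fitted difference, LmnB1 minus mCherry, in percentage points. DEFB131A averaged 100% in LmnB1 and 75% in mCherry libraries, a difference of 25.0 with a standard error of 31.5 and an adjusted p of 0.911 by limma. DEFB114 and DEFB113 each averaged 75% in LmnB1 and 100% in mCherry libraries, a difference of -25.0 with the same error and adjusted p. DEFB110 averaged 75% in LmnB1 and 86.7% in mCherry libraries, a difference of -11.7 with a standard error of 35.7 and an adjusted p of 1 by limma. Each of these differences comes from 1 or 2 libraries, and without LmnB1_6 replicate 2 that of DEFB110 turned to 13.3. DEFB125 averaged 18.8% in LmnB1 and 24.1% in mCherry libraries, a difference of -5.31 with a standard error of 34.0 and an adjusted p of 1 by limma. Without mCherry_3 replicate 2 it was 18.8, without LmnB1_6 replicate 2 it was 3.63 and without LmnB1_16 replicate 1 it was 1.72. With the mCherry_3 pair as 1 sample the differences were 29.97 for DEFB131A, -25.0 for DEFB114 and DEFB113, -9.00 for DEFB110 and -0.51 for DEFB125. DEFB112 was at 100% in all 8 libraries, a difference of 0, which moved to -75.0 with the highest-scoring 50% of each list, to -25.0 with lists trimmed to equal covered length and to 25.0 with domains of log2 enrichment of at least 1.

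For each of the 6, p was 1 in an exact permutation test (two-sided, 70 assignments of libraries). At DEFB131A, DEFB114, DEFB113 and DEFB112 that p was fixed in advance and says nothing about the constructs. With a lone differing library, or none, every assignment gives a difference of the same size. The test also treats the 2 replicates of a clone as independent. Where values vary among more libraries, it can reach 0.0286 at best. If whole clones are permuted there are 6 assignments, and p can go no lower than 0.333. The LmnB1 and mCherry libraries overlapped for all 6 members, while 3.08% of the genes tested did not overlap. With standard errors of 31.5 to 35.7 points at 5 of the 6 members, a shift of moderate size could not be told from none.

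Larger windows gave the same picture. Of the 11 windows of 500 kb that hold a member, 3 had enough coverage to test and 0 were called, against 0.233% of 2144 windows over the genome. The window at chr6:50000001-50500000 was covered over 84.3% on average in LmnB1 and 93.8% in mCherry libraries, a difference of -9.5 points with a standard error of 21.5 and an adjusted p of 1 by limma. The 6p12 span averaged 78.3% in LmnB1 and 95.3% in mCherry libraries, a difference of -16.9 points, or -16.1 with the mCherry_3 pair as 1 sample. Without LmnB1_6 replicate 2 it was 4.74, so that library set its direction. The window at chr4:9000001-9500000, which holds DEFB131A, was covered over 52.3% in LmnB1 and 42.8% in mCherry libraries, with an adjusted p of 1 by limma.

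Members covered over at least 50% numbered 5, 5, 5 and 2 across LmnB1 libraries and 5, 6, 5 and 3 in the mCherry libraries. The same count over all genes was 6.39%, 5.55%, 6.004% and 3.30% of genes in the LmnB1 libraries and 5.58%, 5.76%, 4.38% and 2.91% in the mCherry libraries. The low libraries were the same for members and for all genes, LmnB1_6 replicate 2 and mCherry_4 replicate 2.

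Genes beside the 6p12 cluster were covered too, in part by separate domains. Up to 5 protein-coding genes on each side of the cluster gave 10 neighbours, of which 7 were tested and 0 called. PGK2, a glycolytic enzyme of the male germ line, was covered over 100% in all 8 libraries. CRISP3 and CRISP1, cysteine-rich secretory proteins of exocrine glands and the epididymis, were lowest in the library that was low at the defensins. CRISP3 was at 14.0% and CRISP1 at 0% in LmnB1_6 replicate 2. CRISP2 at 6.25% and, on the other side of the cluster, TFAP2B at 0% and PKHD1 at 36.4% were also lowest in that library. Coverage was partial in other libraries too, with CRISP1 at 28.2% and 39.9% in the mCherry_4 replicates. CRISP3 was at 62.5% in mCherry_4 replicate 2 and TFAP2B at 4.32% in mCherry_4 replicate 1. TFAP2D, a developmental transcription factor, was covered over 100%, 97.5%, 91.6% and 94.2% across LmnB1 libraries and over 100%, 95.8%, 92.4% and 40.3% in the mCherry libraries, so LmnB1_6 replicate 2 was not its low library. RHAG, a red cell membrane glycoprotein, on one side and the cytokine genes IL17A and IL17F on the other were at 0 in all 8 libraries. Over all clusters, 79 neighbours were examined, counting also every non-member protein-coding gene that starts inside a span. Of these, 66 were at 0 in all 8 libraries (83.5%, with 79.3% of all genes). Distal 8p23 gave 40 of the 79, of which 38 were at 0. Many of these lie inside the span and carry names of the FAM90A family. Whether reads were lost or shared among related copies there is not known from the lists either, which limits the 83.5%. Of the 8 neighbours tested, 0 were called, the background being 0.304%. The 1 tested outside 6p12 was LOC124904970, on the 20q11 side, which was covered over 100%, 100%, 100% and 0% across LmnB1 libraries and likewise in the mCherry libraries.

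Other genes of innate defence were read beside the family. A list of 43 genes outside it held antimicrobial peptides and proteins, the receptors CCR6, MC1R, TLR2 and TLR4, and the defensin-like SPAG11A and SPAG11B. Of the list, 34 were at 0 in all 8 libraries (79.1%, with 79.3% of all genes), among them all its alpha-defensins. Of the 7 tested, 0 were called, the background again being 0.304%. REG3A, a lectin that kills Gram-positive bacteria, was covered over 100% in all 4 LmnB1 libraries and over 100%, 100%, 0% and 100% in the mCherry libraries. REG3G, a related lectin, was covered over 100% in all 4 LmnB1 libraries and over 100%, 0%, 100% and 0% in the mCherry libraries. TLR2, a receptor for bacterial lipopeptides, was covered over 48.3% to 63.4% across LmnB1 libraries and over 49.3% to 72.1% in the mCherry libraries. HTN1, HTN3 and STATH, salivary peptides encoded side by side, were covered over 100% in both replicates of LmnB1_6 and over 0% in LmnB1_16 and in all 4 mCherry libraries, so the coverage was that of 1 clone.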

How the data were processed

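Domain lists for 8 H3K9me3 Cut&Run libraries were analysed. Per the submitters' processing notes, SICER, DiffBind 3.0.15, DESeq2 and deepTools were used on GRCh38 (hg38), with no step given for each. The aligner was not given in the sources used here. Each deposited list gives, as the authors' values, a count of H3K9me3 reads and a count of input reads per domain, a raw p-value and a false discovery p-value, a log2 enrichment over input, and a score. The deposited score is 100 times the log2 value. Starts fell on steps of 1000 bp. A library has counts at its own domains alone, which precludes a count model. Read depth relative to input was between 0.880 and 1.01 in the LmnB1 libraries and between 0.421 and 0.859 in the mCherry libraries.

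Gene positions came from the RefSeq table for GRCh38.p14, which gives starts and ends without exons. Covered percents of gene bodies, cluster spans and 500 kb bins were computed in Python 3.11.15 with numpy 2.4.6, pandas 2.3.3 and scipy 1.17.1. Genes and bins with a mean of at least 5% were tested with limma 3.58.1 (statmod 1.5.0, R 4.3.3), clone as a random block, Benjamini-Hochberg threshold 0.05. The functions were tested on simulated data. The members and lists were chosen with earlier results of these data known. Every member was named, with values for those averaging at least 5%. Named too were the 4 genes with the highest mean (with ties) in each of the flanking and antimicrobial lists. Other genes were named after their values were seen. Alternatives changed the domain threshold, covered length, joining, gene margins, filter, block and libraries. p-values measure the spread between libraries of these 4 clones.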

Additional observations from a re-analysis of the deposited data

Results flagged for a closer look

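Among 26 sets of 4 libraries of 1 construct, 11 had 1 library far from the other 3 by Dixon's test. The 26 include sets of 4 equal values, which could not be flagged. Among these were DEFB112 and the proximal 8p23 and 20q11 spans in both constructs. Chance gives such a gap in about 1 in 20 sets that can be flagged. Many of the sets share domains, however, and values at 0 or 100% make a lone library stand out. LmnB1_6 replicate 2 stood apart at DEFB114 (0%), DEFB113 (0%), DEFB110 (0%), the 6p12 span (13.3%), the distal 8p23 span (0%) and the count of members covered over at least 50%, which was 2. In mCherry_4 replicate 2, DEFB131A was at 0%, DEFB110 at 46.6%, and the pooled log2 enrichment of the domains at 6p12 was 0.71, below the other mCherry libraries. In mCherry_3 replicate 2, DEFB125 was at 96.5% and the 20p13 span at 6.34%, above the other mCherry libraries.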

How the results depend on the processing

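The count of members called stayed at 0 under all 19 alternatives, and that of bins over the clusters at 0 under all 18. With the replicate number as a replicate block, 0 members were called and the adjusted p-values were 0.922 and 1. Over the genes tested, correlations between clones of replicate 1 minus replicate 2 lay between -0.025 and 0.099. A shift shared by all genes of a library cannot show in such correlations. Whether the numbers pair the samples in that way was not tested. Calls over all genes numbered 7 and ranged from 0 to 10, and from 8 to 60 with a library left out, the highest without LmnB1_6 replicate 2. Calls over all bins numbered 5 and ranged from 0 to 21, and from 3 to 8 with a library left out.

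With only domains of log2 enrichment of at least 1, the differences at DEFB114, DEFB113 and DEFB110 turned to 25.0 points each (adjusted p 0.664 by limma), DEFB112 moved to 25.0, the 6p12 span to 25.0 and the distal 8p23 span to 0.0975. The 1 domain kept at 6p12 was that of LmnB1_16 replicate 1. The mean number of members covered over at least 50% then differed by 1.0 in place of -0.5. With the highest-scoring 50% of each list, DEFB125 turned to 18.8, DEFB112 moved to -75.0 and DEFB110 to -61.7. The 6p12 span then moved to -54.2 and the distal 8p23 span to 0.0975. The DEFB131A difference of 25.0 fell to 0 with that 50%, with log2 of at least 1 and without mCherry_4 replicate 2. With equal covered length, DEFB114 and DEFB113 moved to -50.0, DEFB110 to -36.7 and DEFB112 to -25.0. With 100 kb added on each side, the proximal 8p23 span moved to -0.505. Members covered over at least 50% in all libraries fell to 0 with equal covered length, the top 50% or log2 of at least 1. With a library left out, that number ranged from 1 to 3, DEFB131A from 0 to 42.6 and DEFB110 from -32.1 to 13.3. DEFB125 then ranged from -20.2 to 18.8 and the 6p12 span from -24.2 to 4.74. The 20p13 span difference of -0.288 turned positive with equal covered length or log2 of at least 1 (0.432 each), the top 50% (1.30), 100 kb added (0.415), without mCherry_3 replicate 2 (1.30), without LmnB1_16 replicate 1 or LmnB1_6 replicate 2 (0.144 each) and with the mCherry_3 pair as 1 sample (0.240), the last added after seeing the data. The causes were not tested. A region outside a list may lie just under the listing threshold, and this limits every value of 0.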

Other observations

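Beta-defensin pseudogenes, examined after the members' values were seen, were covered on 4p16 and 6p12. On 4p16, DEFB108F and DEFB130D were covered over 100% in all 8 libraries, also in mCherry_4 replicate 2, where DEFB131A was at 0. On 11q13 the related DEFB130C was at 0 in all 8, like DEFB108B and DEFB131B beside it. On 6p12, DEFB133 was covered over 100% in every library but LmnB1_6 replicate 2, where it was at 0. The other 15 of the 18 pseudogenes were at 0 in all 8 libraries.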
